A study of Mus musculus with 6 samples.

Results

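Oxidative phosphorylation is carried out by 5 protein complexes of the inner mitochondrial membrane. Its genes are split between 2 genomes, and the 101 genes described here are the protein subunits from both, in cultured mouse CD8 T cells labelled wild type (WT) or knockout for Utx (Utx KO), a histone demethylase encoded by Kdm6a. They were chosen by symbol among the 25655 Ensembl gene identifiers listed: names that start with mt-Nd, mt-Co, mt-Cytb or mt-Atp gave 13 genes of the mitochondrial genome. Names that start with Ndufa, Ndufb, Ndufc, Ndufs, Ndufv, Uqcr or Atp5, subunits of the Cox4 to Cox8 families, Sdha to Sdhd, Cyc1 and Cycs gave 88 nuclear identifiers. Another 9 identifiers that matched these beginnings, the Ndufaf assembly factors and Ndufb1-ps, were left out. By complex, the mitochondrial and nuclear counts were 7 and 38 for complex I, 0 and 4 for complex II, 1 and 9 for complex III, 3 and 18 for complex IV and 2 and 18 for complex V, and Cycs (cytochrome c) stands by itself. Ndufa4, found in complex IV, and Atp5s, a factor and not a core subunit, were counted where their symbols put them.

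The cells came from spleens of female C57BL/6 mice, with 3 biological replicates labelled WT and 3 labelled Utx knockout. Both groups went through the same culture: naive CD8 T cells (CD44 low, CD62L high) spent 2 days with an antibody to TCR-beta (3 µg/ml), another to CD28 (1 µg/ml) and interleukin 2 (10 ng/ml), followed by 3 days in which only interleukin 2 was kept. The labels give neither the allele nor the driver of the deletion, nor which animals the replicates came from. The p-values rest on the spread among 3 samples a group, moderated by the spread over all genes. They may therefore not measure the spread between animals. Libraries were made from 500 ng of total RNA with a kit that primes on poly(A) and reads the 3′ end of each transcript. Values are CPM, reads put on one common library size, and the libraries held 1619085 to 2529113 reads.

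The targeted gene Kdm6a read 44.3, 49.3 and 53.6 CPM in the WT libraries, while those labelled Utx KO read 27.8, 39.4 and 31.5 CPM. It was lower but present (log2 fold change −0.57, limma adjusted p = 0.0123; 0.00510 to 0.0985 over 15 alternatives, 4 of which ended the call: DESeq2 and the fits without WT replicate 2 or 3 or Utx KO replicate 1), and since the deleted part is not given, a 3′ tag does not check the label. Of the 7 CD8 T cell markers, 4 passed the test, where 10.8% of all tested genes passed in either direction. The 7 had summed levels of 1807 to 1922 CPM in WT and 2037 to 2086 CPM in Utx KO, with Trac listed at 0. The 5 B cell markers summed to 2.77 to 5.47 CPM for WT and 0.571 to 1.85 CPM for Utx KO (Cd79a, Ms4a1 and Pax5 at 0), and the 5 erythroid markers to 0 to 0.461 CPM and 2.29 to 3.09 CPM (Hbb-bs and Alas2 at 0). The 6 myeloid markers, of which Lyz2, Itgam and Adgre1 were at 0, summed to 71.9 to 86.6 CPM in WT and 78.3 to 88.9 CPM in Utx KO. Those of CD4 T cells (11.1 to 17.5 CPM, Cd4 at 0) and NK cells (at most 1.85 CPM, Ncr1 at 0) were low in both groups. The part of these marker levels in the results was not tested.

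In the respiratory chain, complex I takes electrons from NADH and complex II from succinate. Complex III passes them to cytochrome c, complex IV hands them to oxygen, and complex V, the ATP synthase, uses the proton gradient that complexes I, III and IV build. Complexes I, III, IV and V are mosaics of subunits from both genomes, whereas complex II is made from nuclear genes only. The mitochondrial genome is transcribed as long precursors from which the messenger RNAs are cut, and nuclear subunits are translated in the cytosol and imported. Activation through the T-cell receptor is known to increase mitochondrial mass and respiration.

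The ends of the mitochondrial messenger RNAs are shown because they are what a 3′ kit reads. In GENCODE M21 (GRCm38) these transcripts stop at or just after the coding sequence, and mt-Co3, mt-Nd4 and mt-Cytb encode only the first base of a stop codon, the rest of which is supplied by the poly(A) tail. The last 30 bases of these, of mt-Atp6, which fell, and of mt-Nd3 and mt-Nd4l, which did not pass the test, follow 5′ to 3′ with the encoded part of the stop codon in capitals.
mt-Co3: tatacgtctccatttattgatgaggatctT
mt-Nd4: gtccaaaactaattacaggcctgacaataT
mt-Cytb: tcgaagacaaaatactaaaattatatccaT
mt-Atp6: gtaagcctatatctacatgataatacaTAA
mt-Nd3: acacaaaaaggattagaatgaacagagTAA
mt-Nd4l: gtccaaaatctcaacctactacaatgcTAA
Some of these messages carry a pair of reading frames. mt-Atp8 and mt-Atp6 share 43 bases (chrM:7927-7969), and mt-Nd4l and mt-Nd4 share 7 bases (chrM:10167-10173), so reads at these borders belong to both genes. The shared bases of the first pair are shown with the start codon of mt-Atp6 in capitals.
mt-Atp8 and mt-Atp6: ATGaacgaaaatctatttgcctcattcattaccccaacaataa
mt-Nd6 is the one gene of the 13 on the minus strand, and it shares 14 positions with the end of mt-Nd5. Its message is known to lack the long poly(A) tail of the others, and the strand used in counting is not given in the sources used here, so its reads cannot be told apart from antisense reads.

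Most messages of the mitochondrial genome were lower in Utx KO cells, while few of those for nuclear subunits passed the test. Of the 13 mitochondrial genes, 10 fell and 0 rose (limma adjusted p under 0.05), where 5.51% of the 10590 genes tested fell. Because these 13 messages are cut from shared long precursors, they are not independent, and counts over them do not stand for separate results. The median log2 fold change of the 13 was −0.41, against 0.0067 over all genes tested. When a library was left out, this mitochondrial median ran from −0.465 (without WT replicate 3) to −0.31 (without WT replicate 1). Of the 88 nuclear identifiers, 82 passed the filter on low values. Of these 82, 6 rose (7.32%), close to the 5.28% of all tested genes that rose, and 1 fell. The nuclear median was 0.05, and 56 of the 82 had a fold change above 0 (68.3%, against 51.0% of all genes tested). The whole 95% interval of the fold change lay above the mitochondrial median for 80 of the 82 nuclear genes, the exceptions being Cycs and Sdhd. Groups did not overlap, with lower values in Utx KO, for 10 of the 13 mitochondrial genes and 4 of the 82 nuclear genes, against 12.6% of all tested genes; with higher values they did not overlap for 0 and 21, against 14.0% (26.5% in either direction). Among all 1832 tested genes with a mean of at least 100 CPM, 11.1% fell and 11.8% rose.

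The count of mitochondrial genes that fell stood at 7 to 11 over the 15 alternative settings, and that of nuclear genes that rose at 2 to 7, beside shares of all genes called in either direction of 10.8% in the main fit. With DESeq2, which called 5.2% of all genes, 7 mitochondrial genes fell and 2 nuclear genes rose; with edgeR the share of all genes called was 12.5%. The share was 9.64% and 11.0% with pseudocounts of 0.1 and 5, 8.05% without a filter, 12.3% with a stricter filter, 10.7% under both other scalings and 10.1% with a replicate block. It was 7.87%, 7.13% and 8.37% without WT replicates 1, 2 and 3, and 10.1%, 7.99% and 8.87% without Utx KO replicates 1, 2 and 3.

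**Figure D1:**
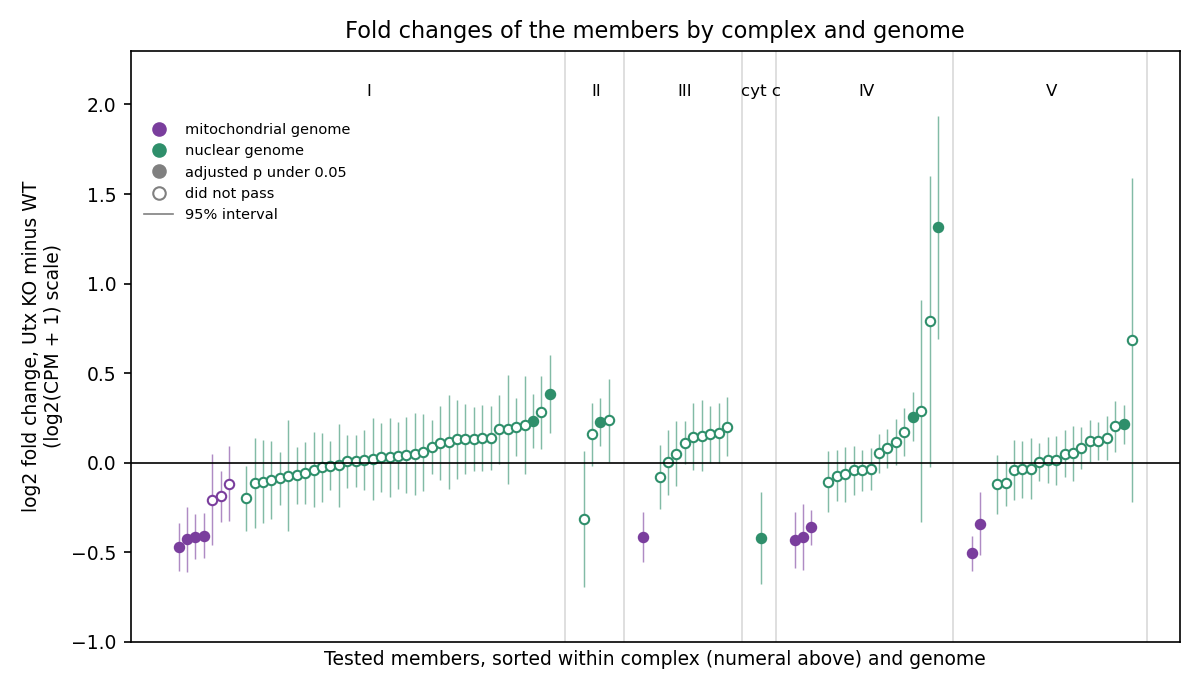
Log2 fold change (Utx KO minus WT, log2(CPM + 1) scale) of the 95 tested subunit genes, sorted within complex and genome, with 95% intervals from the limma fit; filled points passed at an adjusted p under 0.05. The 13 mitochondrial genes lie between −0.51 and −0.12, and most nuclear genes lie around 0, with Cox6b2 (1.31) as the highest.

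Summed over the 13 genes, mitochondrial RNA took 25061, 22390 and 20710 CPM in the WT libraries (replicates 1 to 3), but 15327, 17621 and 18268 CPM with Utx knocked out. The groups did not overlap, and the Utx KO mean differed from the WT mean by −24.9%. The nuclear sum averaged 16241 ± 113 CPM over the WT libraries and 16934 ± 541 CPM over the Utx KO libraries (SD, n = 3), a difference of 4.26% without overlap; under TMM scaling the difference was 3.74% and the groups overlapped. As shares of all reads, the mitochondrial genes held 2.07% to 2.51% in WT and 1.53% to 1.83% in Utx KO, and the largest 95% Wilson interval reached 0.0206 percentage points to either side, which covers counting error only. In bulk RNA, fewer cells of a type and less RNA per cell cannot be told apart. The sums have no p-value, because the genes were chosen with earlier results known.

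Within complex I, the entry point for NADH, 4 of the 7 mitochondrial genes fell: mt-Nd1, mt-Nd2, mt-Nd4 and mt-Nd6. mt-Nd4 (chrM:10167-11544), a subunit of the proton-pumping membrane arm, was at 5173, 4723 and 4279 CPM for WT replicates 1, 2 and 3 and 2932, 3511 and 3834 CPM in Utx KO. Each Utx KO library lay below each WT library (log2 fold change −0.47, SE 0.065, limma adjusted p = 1.71e-05). mt-Nd1 (chrM:2751-3707), which joins the membrane arm to the peripheral arm, was at 2436, 2090 and 1871 CPM across WT, against 1561, 1679 and 1541 CPM across Utx KO. It fell by 0.41 on the log2 scale (SE 0.06, limma adjusted p = 3.45e-05), again without overlap. mt-Nd2 (chrM:3914-4951), another membrane-arm subunit, was at 4265, 3612 and 3189 CPM across WT, against 2640, 2861 and 2790 CPM across Utx KO (−0.41, limma adjusted p = 4.68e-05). The Utx KO libraries were close together for mt-Nd1 and mt-Nd2, and the WT libraries were spread more widely.

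mt-Nd6, the minus-strand gene, was at 1091, 995 and 911 CPM across WT, against 594, 777 and 880 CPM across Utx KO. Its fall of 0.43 on the log2 scale (limma adjusted p = 0.00154) was lost with DESeq2 (adjusted p = 0.173), while the lowest of the 15 alternatives gave 1.67e-05. The other 3 complex I genes did not pass. mt-Nd5, a large membrane-arm subunit, was at 773, 688 and 681 CPM across WT, against 544, 652 and 691 CPM across Utx KO (limma adjusted p = 0.0850). Utx KO replicate 3 lay inside the WT range; without Utx KO replicate 3 the gene passed (limma adjusted p = 0.0167), and over 15 alternatives the adjusted p reached 0.394. mt-Nd3 was at 371, 299 and 298 CPM across WT, against 373, 279 and 249 CPM across Utx KO (log2 fold change −0.12, 95% interval −0.33 to 0.096, limma adjusted p = 0.565). Here Utx KO replicate 1 was as high as the highest WT library. Without it mt-Nd3 passed (limma adjusted p = 0.0235; highest of 15 alternatives 0.976), and without Utx KO replicate 3 its log2 fold change turned to 0.0090. mt-Nd4l was at 131, 102 and 99.6 CPM across WT, against 116, 78.3 and 94.5 CPM across Utx KO (−0.21, 95% interval −0.46 to 0.046, limma adjusted p = 0.339). Its groups overlapped through Utx KO replicate 1 as well.

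mt-Cytb (chrM:14145-15288), the one complex III subunit of the mitochondrial genome, carries its b-type haems. It was at 1345, 1143 and 1117 CPM across WT, against 789, 961 and 955 CPM across Utx KO, without overlap (log2 fold change −0.41, SE 0.067, limma adjusted p = 0.000109). The 3 mitochondrial subunits of complex IV form its catalytic core, and all 3 fell. mt-Co1 (chrM:5328-6872), which holds the oxygen-binding site, was at 2835, 2699 and 2577 CPM across WT, against 1564, 2158 and 2479 CPM across Utx KO. The highest Utx KO library came close to the lowest WT library, and the fall of 0.41 on the log2 scale (limma adjusted p = 0.00280) did not pass with DESeq2 (adjusted p = 0.320), the lowest of 15 alternatives being 6.23e-06. mt-Co2 (chrM:7013-7696), which receives electrons from cytochrome c, was at 1963, 1748 and 1692 CPM across WT, against 1093, 1407 and 1536 CPM across Utx KO. Its log2 fold change was −0.43 (limma adjusted p = 0.000339), with an adjusted p = 0.0760 in DESeq2 and a lowest value of 5.66e-06 over 15 alternatives.

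mt-Co3 (chrM:8607-9390), the third core subunit, was at 2095, 1939 and 1774 CPM across WT, against 1503, 1523 and 1490 CPM across Utx KO. The Utx KO libraries differed by little among themselves, and the gene fell by 0.36 on the log2 scale (SE 0.047, limma adjusted p = 8.25e-06). In complex V both mitochondrial genes fell. mt-Atp6 (chrM:7927-8607), a subunit of the proton channel, was at 2396, 2182 and 2063 CPM across WT, against 1474, 1609 and 1590 CPM across Utx KO. It showed the largest fall of the 13 (−0.51, SE 0.048, 95% interval −0.60 to −0.41, limma adjusted p = 5.33e-08). mt-Atp8 (chrM:7766-7969), a small stator subunit translated from the same message, was at 189, 170 and 159 CPM across WT, against 143, 126 and 139 CPM across Utx KO (−0.34, limma adjusted p = 0.00921). Its call was lost without WT replicate 1 (adjusted p = 0.0885) and without Utx KO replicate 2 (0.0623), and the lowest among 15 alternatives was 0.00504.

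**Figure D2:**
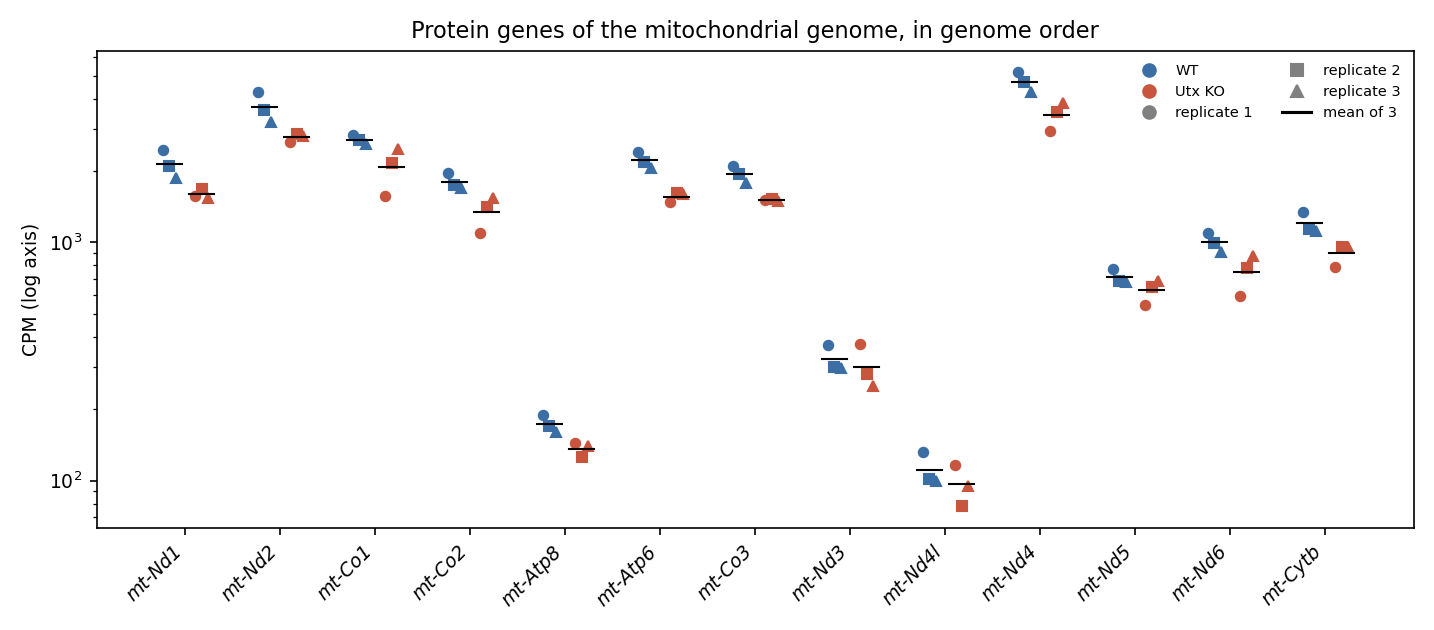
CPM (log axis) of the 13 protein genes of the mitochondrial genome in each library, in genome order; blue is WT, red is Utx KO, marker shapes are replicates 1 to 3 and black lines are means. The groups do not overlap for 10 genes, and Utx KO replicate 1 reaches into the WT values for mt-Nd3 and mt-Nd4l.

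The libraries labelled Utx KO did not fall short of WT by the same amount. Replicate 1 was the lowest Utx KO library for 8 of the 13 genes, replicate 2 for 2 and replicate 3 for 3. For mt-Co1 the Utx KO libraries stood at 57.9%, 79.8% and 91.7% of the WT mean in replicates 1, 2 and 3, and for mt-Nd6 at 59.5%, 77.8% and 88.0%. For mt-Co3 they stood at 77.6%, 78.7% and 77.0%, and for mt-Nd1 at 73.2%, 78.7% and 72.3%. The spread among Utx KO libraries thus differed from gene to gene within the same genome. In WT, replicate 1 was the highest library and replicate 3 the lowest for all 13 genes, which is also the order of their read totals (2529113, 2170122 and 1827703). Among Utx KO libraries the deepest, replicate 1 with 2517655 reads, had the lowest mitochondrial sum. The part of depth in the result was not tested.

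**Figure D3:**
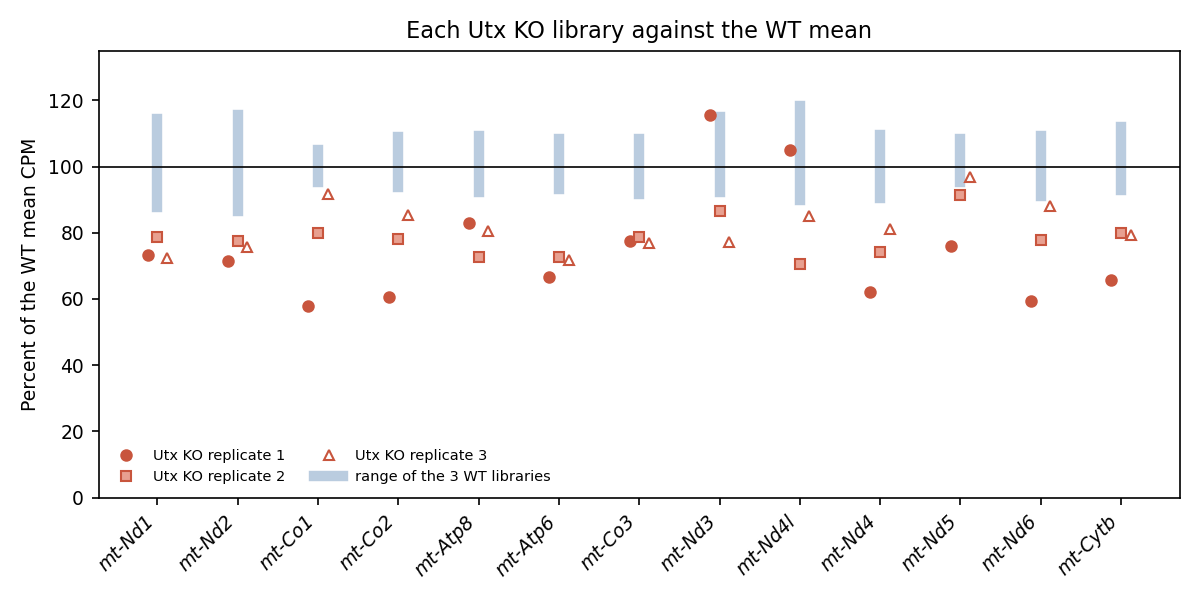
CPM of each Utx KO library as a percentage of the WT mean for the 13 mitochondrial genes in genome order; blue bars span the 3 WT libraries. Utx KO replicate 1 ranges from 57.9% for mt-Co1 to 116% for mt-Nd3, while the 3 Utx KO libraries lie within 77.0% to 78.7% for mt-Co3.

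Nuclear copies of mitochondrial DNA can draw reads from the mitochondrial genes. Of all 50-base pieces from the last 300 bases, 98.8% to 100% occurred in another transcript of GENCODE M21 for mt-Co1, mt-Co2, mt-Co3, mt-Atp6, mt-Nd3 and mt-Nd4l, and 31.9% for mt-Nd2. No piece was shared for mt-Nd1, mt-Nd4, mt-Nd6, mt-Cytb and mt-Atp8, and 1.99% were shared for mt-Nd5. None of the other genes that share these ends is listed in the tables (0 of them for each gene). The part of such copies in the result was not tested.

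The 38 nuclear identifiers of complex I include 37 tested genes, of which 2 rose and 0 fell, a share of higher calls close to the 5.28% of all tested genes (5.51% of which fell). Their median log2 fold change was 0.039 and 25 of the 37 were above 0. Ndufb6, an accessory subunit of the membrane arm, was at 57.3, 63.1 and 62.9 CPM across WT, against 79.8, 82.3 and 77.8 CPM across Utx KO. The groups were clearly apart (log2 fold change 0.38, SE 0.11, limma adjusted p = 0.0191), but the call was lost with DESeq2 (adjusted p = 0.181), without WT replicate 1 (0.102) and without Utx KO replicate 2 (0.0722), with a lowest value of 0.0155. Ndufb8, a neighbouring accessory subunit, was at 219, 210 and 241 CPM across WT, against 282, 259 and 248 CPM across Utx KO. The lowest Utx KO library stood just above the highest WT library (0.23, limma adjusted p = 0.0383), and 7 of 15 alternatives ended the call, with adjusted p from 0.0208 to 0.196; among them were DESeq2 (0.158) and the fits without WT replicate 1 (0.119) or 2 (0.196) or without Utx KO replicate 1 (0.131) or 2 (0.0795).

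Of the other nuclear genes of complex I, Ndufv1, which binds NADH and the flavin cofactor, was at 86.2, 103 and 97.4 CPM across WT, against 123, 123 and 104 CPM across Utx KO (log2 fold change 0.28, limma adjusted p = 0.0737; range over 15 alternatives 0.0277 to 0.330), and 2 alternatives, edgeR and the fit without Utx KO replicate 3, passed it. The complex I nuclear gene with the highest mean, Ndufv3, was at 304 ± 4.95 CPM for WT against 301 ± 22.2 CPM for Utx KO (SD, n = 3). Its interval of −0.15 to 0.12 on the log2 scale did not reach the mitochondrial median. The lowest fold change was that of Ndufa5, at 155 ± 15.1 and 134.5 ± 8.70 CPM (−0.20, limma adjusted p = 0.177). Ndufa4 was at 39.0 ± 4.16 and 37.3 ± 5.92 CPM, and its paralog Ndufa4l2, known from cells short of oxygen, was listed at 0 in all libraries.

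Complex II, succinate dehydrogenase, has no mitochondrial subunit, and 3 of its 4 genes had higher values in every Utx KO library than in any WT library, as did 14.0% of all tested genes. By the test, 1 of the 4 rose and 0 fell, beside 5.28% and 5.51% of all tested genes. Sdhb, the iron-sulfur subunit, was at 272, 280 and 294 CPM across WT, against 342, 312 and 337 CPM across Utx KO, and rose (log2 fold change 0.23, SE 0.06, limma adjusted p = 0.0216). The call did not hold with DESeq2 (adjusted p = 0.0997) or when WT library 1 (0.104) or 2 (0.0811), or Utx KO library 1 (0.0561) or 3 (0.0739), was left out, the lowest of 15 alternatives being 0.0136. Sdha, the flavoprotein that binds succinate, was at 111, 112 and 117 CPM across WT, against 131, 127 and 122 CPM across Utx KO (0.16, limma adjusted p = 0.279). The membrane anchor Sdhc averaged 58.7 ± 1.99 in WT and 69.4 ± 5.65 CPM in Utx KO (limma adjusted p = 0.208), and the other anchor, Sdhd, at 27.2 ± 2.92 and 21.9 ± 4.26 CPM (SD, n = 3; −0.31, 95% interval −0.69 to 0.064, limma adjusted p = 0.331). Summed, the 4 genes were at 481 ± 12.3 CPM for WT against 548 ± 26.0 CPM for Utx KO, 14.0% higher, without overlap.

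None of the 9 nuclear genes of complex III passed limma, where 5.28% of all tested genes rose and 5.51% fell. With edgeR and DESeq2 the calls were also 0. An unadjusted limma p under 0.05 was found for 2 of the 9, beside 2408 of the 10590 genes tested. Fold changes were above 0 for 8 of the 9, against 51.0% of all genes tested, with a median of 0.15. Groups did not overlap for 5 with higher and 1 with lower values in Utx KO; over all genes tested these shares were 14.0% and 12.6%. Uqcrh, the hinge protein that binds cytochrome c1, was at 368 ± 10.4 CPM for WT against 398 ± 14.7 CPM for Utx KO (SD, n = 3). Uqcrq had the highest fold change of the complex (0.20, limma adjusted p = 0.122) and passed only without Utx KO replicate 3 (adjusted p = 0.0433; highest of 15 alternatives 0.387). Uqcrb had the lowest (−0.080, limma adjusted p = 0.652), and 40.6% of its end pieces occur in other genes. Cyc1, cytochrome c1 itself, averaged 83.8 ± 2.97 in WT and 93.25 ± 4.39 CPM in Utx KO (limma adjusted p = 0.385).

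Cycs, the soluble electron carrier between complexes III and IV and a trigger of apoptosis when released, was the only nuclear gene of the 82 that fell. It was at 65.2, 65.9 and 54.2 CPM across WT, against 48.9, 42.8 and 45.7 CPM across Utx KO, without overlap. Its log2 fold change of −0.42 (SE 0.12, limma adjusted p = 0.0296) was of the size seen for the mitochondrial genes. The call was lost with DESeq2 (adjusted p = 0.202), without WT replicate 1 (0.132) or 2 (0.149) and without Utx KO replicate 2 (0.106) or 3 (0.0563), and the lowest among 15 alternatives was 0.0198.

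Of 18 nuclear genes of complex IV, 14 were tested, 2 rose and 0 fell, beside 5.28% and 5.51% of all tested genes. Cox7a2l, which encodes a factor that joins complexes III and IV into supercomplexes, was at 262.5, 246 and 266 CPM across WT, against 305, 324 and 296.5 CPM across Utx KO. It rose by a log2 fold change of 0.26 (SE 0.066, limma adjusted p = 0.0105), and the call was lost with DESeq2 (adjusted p = 0.0520), without WT replicate 2 (0.0788) and without Utx KO replicate 2 (0.0691), the lowest value being 0.00602. Its relative Cox7a2, a structural subunit, was at 282 ± 7.91 and 274 ± 14.9 CPM (SD, n = 3; limma adjusted p = 0.767). Cox6b2, the testis form of a subunit that faces the intermembrane space, was low but rose, from 2.77, 5.53 and 5.47 CPM across WT to 12.7, 15.4 and 9.88 CPM in Utx KO. That corresponds to 29 pooled reads in WT and 75 in Utx KO (log2 fold change 1.31, SE 0.30, limma adjusted p = 0.00459), and the call held in all 15 alternatives (adjusted p from 0.00214 to 0.0421). The general form, Cox6b1, averaged 299.5 ± 10.3 in WT and 325 ± 13.2 CPM in Utx KO (limma adjusted p = 0.279).

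The remaining tissue forms of complex IV were low or listed at 0. Cox6a2, the muscle form, averaged 2.02 ± 1.07 in WT and 4.16 ± 1.57 CPM in Utx KO (limma adjusted p = 0.239) beside 438 ± 19.6 and 427 ± 3.04 CPM for the general form Cox6a1. Cox7a1, also of muscle, averaged 6.24 ± 0.725 in WT and 8.08 ± 2.77 CPM in Utx KO (limma adjusted p = 0.635). Cox4i2 had 1 pooled read in WT and 2 in Utx KO, and Cox7b2, Cox8b and Cox8c were listed at 0. If it comes from sampling alone, a count of 0 allows up to 1.19 CPM in the deepest library and 1.85 CPM in the shallowest (3 reads). Since Trac was also listed at 0 in these CD8 T cells, a 0 here need not set such a limit. Cox4i1, the regulatory subunit that binds ATP, was at 256, 258 and 269 CPM across WT, against 312, 286 and 284 CPM across Utx KO, without overlap but short of the threshold (0.17, limma adjusted p = 0.101). Cox8a, the smallest subunit, was at 596 ± 29.3 and 631 ± 20.6 CPM, and Cox7c, the highest in mean, at 655 ± 10.2 and 679.5 ± 43.8 CPM (SD, n = 3), with 65.2% of its end pieces present in other transcripts. Cox5a had the lowest fold change (−0.11, limma adjusted p = 0.493); without Utx KO replicate 1 it passed as lower (adjusted p = 0.0399; highest of 15 alternatives 0.887).

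Among 17 tested nuclear genes of complex V, 1 rose and 0 fell, a share of higher calls close to the 5.28% of all tested genes. The gene was Atp5g2, one of 3 genes whose mature products are the same c subunit of the proton-driven ring. Atp5g2 was at 442, 453 and 465 CPM across WT, against 536, 527 and 515 CPM across Utx KO (log2 fold change 0.21, SE 0.053, limma adjusted p = 0.00910). Because 55.5% of its end pieces are present in other genes, the size of the rise is uncertain. None of these other genes is listed. The call was lost without WT replicate 1 (adjusted p = 0.0526; lowest of 15 alternatives 0.00664). The 2 other genes of the ring did not pass: Atp5g1, with 36.0% of its end pieces shared, averaged 198 ± 11.3 in WT and 193 ± 14.1 CPM in Utx KO (limma adjusted p = 0.839), and Atp5g3, the highest in mean, at 715 ± 20.1 and 718 ± 41.9 CPM (SD, n = 3; limma adjusted p = 0.967). For Atp5g1, 7 of the genes that share its end pieces are listed, and their part in its values was not tested. Atp5c1, the rotor shaft, was at 194.5, 191 and 185.5 CPM across WT, against 213, 222 and 223 CPM across Utx KO, also without overlap but short of the threshold (0.20, limma adjusted p = 0.0671). Atp5j, a stator subunit, had the lowest fold change (−0.12, limma adjusted p = 0.399). The highest was that of Atp5s, at 1.62 ± 1.15 and 3.07 ± 1.31 CPM (0.68, 95% interval −0.22 to 1.59, limma adjusted p = 0.386). A second identifier named Atp5o was listed at 0, and the main one was among the genes that did not pass.

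**Figure D4:**
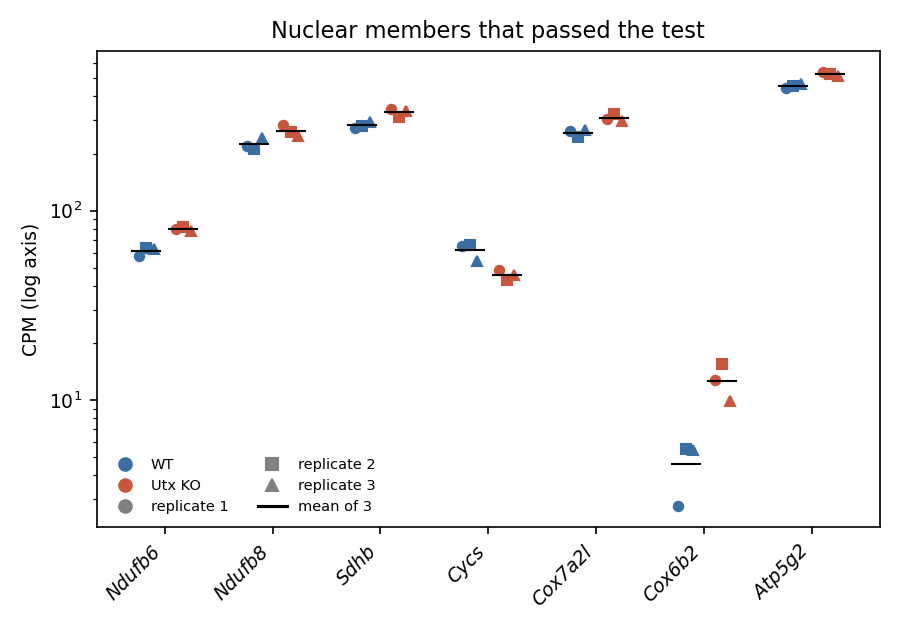
CPM (log axis) of the 7 nuclear genes that passed the test, in each library; blue is WT, red is Utx KO, marker shapes are replicates 1 to 3 and black lines are means. Cycs is lower in every Utx KO library (42.8 to 48.9 CPM) than in any WT library (54.2 to 65.9 CPM), and the other 6 are higher.

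Set against each other within a library, the genomes shifted in the same direction in each of the 4 mixed complexes. The ratio of summed mitochondrial to summed nuclear CPM does not move with the library total, and only its change between libraries is of use, since the genes differ in how well they are primed. For complex I it was 3.15, 2.78 and 2.47 in WT replicates 1, 2 and 3 and 1.78, 2.17 and 2.16 in Utx KO. For complex III it was 0.931, 0.780 and 0.80 in WT and 0.493, 0.626 and 0.625 in Utx KO. The groups did not overlap for either, and the Utx KO means differed from WT by −27.2% and −30.5%. For complex IV it was 1.71, 1.58 and 1.46 in WT and 0.961, 1.25 and 1.33 in Utx KO. For complex V it was 0.462, 0.413 and 0.392 in WT and 0.265, 0.296 and 0.30 in Utx KO. The Utx KO means differed from WT by −25.4% and −32.0%, again with no overlap. Over all 13 and 88 genes the ratio was 1.40 ± 0.145 in WT and 1.01 ± 0.12 in Utx KO (SD, n = 3). Whether the complexes differ from each other in this shift was not tested.

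**Figure D5:**
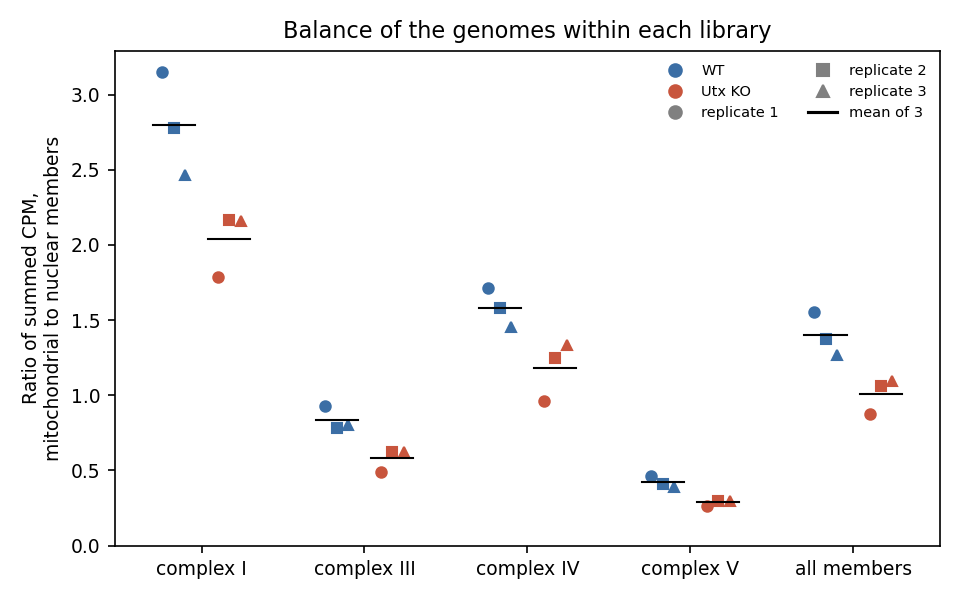
Ratio of the summed CPM of mitochondrial to nuclear genes in each library, for the complexes with subunits from both genomes and for all genes; blue is WT, red is Utx KO, shapes are replicates 1 to 3 and black lines are means. In every column the 3 Utx KO libraries lie below the 3 WT libraries, for example 0.873 to 1.10 against 1.27 to 1.56 over all genes.

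Nuclear respiratory factor 1 (Nrf1), GABPA and YY1 are transcription factors known for promoters of respiratory chain genes, so their motifs were searched on both strands of the RefSeq promoter sequences (GRCm38.p6, 300 bases, from 250 before to 50 after the start). Of the nuclear genes, 68 had a sequence. The NRF1 motif (GCGCA, any base, GCGC) was found for 17 of them (25.0%), against 5.19% of 27025 genes with a sequence. The GABPA motif CCGGAAGT was found for 5 (7.35%, against 4.31%) and the YY1 motif AANATGGCG for 10 (14.7%, against 2.76%). The 27025 genes were not limited to those expressed in these cells, and the part of this in the differences was not tested. Of the 7 nuclear genes that passed the test, Atp5g2 had an exact match, to the NRF1 motif. The other 6 had no exact match to any of the 3. The search counted no near matches, such as tcgcatgcgc in the Cycs promoter, which differs from the NRF1 motif in its first base. The promoter of Atp5g2, which rose (chr15:102670998-102671297, minus strand), is shown with the match in capitals, beside that of Cycs, which fell (chr6:50566520-50566819, minus strand).
Atp5g2: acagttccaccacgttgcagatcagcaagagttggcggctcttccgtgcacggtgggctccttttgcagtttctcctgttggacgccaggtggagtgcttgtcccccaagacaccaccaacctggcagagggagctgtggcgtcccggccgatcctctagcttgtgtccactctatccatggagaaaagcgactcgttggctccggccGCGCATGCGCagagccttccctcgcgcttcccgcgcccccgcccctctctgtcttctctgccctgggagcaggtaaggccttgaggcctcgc
Cycs: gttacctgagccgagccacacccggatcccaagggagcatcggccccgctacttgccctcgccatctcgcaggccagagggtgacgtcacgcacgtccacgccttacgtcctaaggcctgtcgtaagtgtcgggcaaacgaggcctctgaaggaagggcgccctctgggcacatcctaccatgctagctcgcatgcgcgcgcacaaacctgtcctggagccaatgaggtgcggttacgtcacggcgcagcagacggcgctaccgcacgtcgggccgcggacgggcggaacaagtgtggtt
A match describes letters in this window and not a bound site.

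Genes that maintain, transcribe and process mitochondrial nucleic acids were set beside all tested genes, of which 5.28% rose and 5.51% fell. Of 20 genes for maintenance and transcription of mitochondrial DNA, 0 were called by limma. An unadjusted limma p under 0.05 was found for 0 of them, beside 2408 of the 10590 genes tested. Tfam, which packages mitochondrial DNA and starts its transcription, was at 77.1, 72.8 and 81.5 CPM across WT, against 78.6, 73.1 and 62.4 CPM across Utx KO (log2 fold change −0.12, 95% interval −0.34 to 0.11, limma adjusted p = 0.602). The mitochondrial RNA polymerase Polrmt was at 7.96 ± 3.82 and 8.80 ± 0.698 CPM (SD, n = 3; limma adjusted p = 0.741), and its sign turned without WT replicate 3 (−0.10). Of 17 genes for processing and stability of mitochondrial RNA, 4 had an unadjusted limma p under 0.05, beside 2408 of the 10590 tested. Their groups did not overlap for 3 with lower and 1 with higher values in Utx KO, against 12.6% and 14.0% of all tested genes. After adjustment, 0 of the 17 rose and 1 fell. That was Fastkd3, an RNA-binding protein of the mitochondrial matrix, at 24.9, 22.6 and 25.7 CPM across WT, against 16.7, 18.3 and 11.1 CPM across Utx KO (−0.66, limma adjusted p = 0.0391). The call was lost in 6 of 15 alternatives, among them DESeq2 (adjusted p = 0.281, the highest; lowest 0.0288) and the fits without WT replicate 1 (0.110), 2 (0.0779) or 3 (0.119) or without Utx KO replicate 3 (0.187).

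Of 52 tested assembly factors, which help to build the complexes without being part of them, 1 rose and 0 fell, beside 5.28% and 5.51% of all tested genes, and their median log2 fold change was 0.048. Before adjustment, 7 of the 52 had a limma p under 0.05, beside 2408 of the 10590 genes tested. The one that rose was Cox14, needed for the synthesis and assembly of the complex IV core subunit Co1. It was at 45.5, 49.8 and 47.1 CPM across WT, against 69.5, 88.5 and 74.7 CPM across Utx KO (0.69, SE 0.12, limma adjusted p = 0.000256), a call that held in all 15 alternatives (adjusted p up to 0.00500). Among 11 tested nuclear regulators of respiratory chain genes, limma called 0. An unadjusted limma p under 0.05 was found for 1 of them, beside 2408 of the 10590 genes tested. The coactivator Ppargc1b was at 14.7 ± 1.54 and 12.0 ± 2.41 CPM (SD, n = 3; limma adjusted p = 0.536).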

How the data were processed

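The authors deposited 1 table per library with CPM values, reads put on one common library size; per the submitters' processing notes the builds are GRCm38 and mm10. The sources used here name no aligner, counter, strand setting or filter. Dividing by the value of 1 read gave whole reads for 100% of values (tolerance 0.001). Symbols were matched for 25600 of 25655 identifiers.

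Genotype was tested with limma-trend (limma 3.58.1, R 4.3.3) on log2(CPM + 1), over the 10590 genes that reached 1 CPM in 3 libraries. P-values were two-sided and adjusted by Benjamini-Hochberg over all tested genes (threshold 0.05). Fold changes on this scale understate changes of low genes. Alternatives were pseudocounts 0.1 and 5, no filter or a minimum of 5 CPM, TMM scaling, totals without mitochondrial genes, a replicate block, leaving out each library, and edgeR 4.0.16 (1106 calls) and DESeq2 1.42.0 (551 calls) on the recovered reads. The fits were also run on simulated data with a fixed spread and with larger changes than those of most genes named here, which does not check these calls. Limma called 1142 genes (10.8%).

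The genes and lists were chosen with earlier results of these data known. Named were all mitochondrial genes, Sdha to Sdhd, Cyc1, Cycs, called nuclear genes, the highest, most raised and most lowered nuclear gene of each complex, tissue forms, Tfam, Polrmt, Ppargc1b, up to 4 called genes of each further list and Kdm6a. Ndufv1 and Atp5c1 were added after their values were seen. Of the 101 genes, 20 share at least 20% of their end pieces with another gene. The mitochondrial ribosomal RNAs were not analysed here.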

Additional observations from a re-analysis of the deposited data

How the results depend on the processing

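All 13 mitochondrial genes had fold changes below 0 under each alternative except mt-Nd3 without Utx KO replicate 3 (0.0090). Of them, 7 fell with DESeq2 and 9 to 11 when a library was left out. Neither other scaling moved the median of all genes by more than −0.0078. With DESeq2, which called 551 genes against 1142 with limma, nuclear calls dropped to 2 higher and 0 lower, complex I nuclear to 0, complex II to 0, cytochrome c to 0, complex IV to 1 higher nuclear and 1 lower mitochondrial, and RNA processing to 0. Leaving out a library gave 2 to 7 nuclear genes higher and 0 to 2 lower. By complex the ranges were 0 to 3 (I, nuclear higher), 0 to 1 (II higher, III nuclear higher, cytochrome c lower, IV nuclear lower, V nuclear higher), 1 to 2 (IV nuclear higher, V mitochondrial lower) and 0 to 2 (assembly factors lower, RNA processing lower). Complex I nuclear calls were 1 with a pseudocount of 0.1. RNA processing calls were 0 without a filter. Assembly factors that fell were 1 with the stricter filter, with TMM scaling and with mitochondrial genes left out of the total.

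No pairing by replicate number was seen: same-numbered libraries deviated with correlations of 0.00602, −0.00272 and −0.00963. The other pairs lay between −0.0217 and 0.0227. With 3 libraries a group, these values cannot settle whether the libraries were paired. The replicate block gave 1065 calls in all, left 10 mitochondrial genes lower and 5 nuclear genes higher, and left 1 in complex I, where Ndufb8 was lost.

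Some uncalled fold changes turned in sign: Atp5g3 to −0.0013 with TMM scaling and −0.0022 with mitochondrial genes left out of the total. Over the fits that leave out a library they spanned −0.097 to 0.0054 for Atp5g1, −0.0403 to 0.0397 for Atp5g3, −0.075 to 0.0013 for Cox7a2, −0.20 to 0.012 for Ndufa4, −0.053 to 0.047 for Ndufv3, −0.10 to 0.53 for Polrmt and −0.28 to 0.0090 for mt-Nd3. The causes were not tested. Without the most abundant gene of each genome, the Utx KO ratio of mitochondrial to nuclear CPM differed from WT by −27.3% over all genes, −25.8% for complex I, −25.5% for complex IV and −25.0% for complex V, where the value with all genes was −32.0%. No such value was possible for complex III, which has 1 mitochondrial gene.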
